A study of Mus musculus with 7 samples.

Results

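The genes described here are 10 mouse genes of the histone H3 lysine 9 (H3K9) methylation pathway. They encode the methyltransferases Suv39h1, Suv39h2, Ehmt1, Ehmt2, Setdb1 and Setdb2, the corepressor Trim28, and the heterochromatin protein 1 (HP1) family Cbx1, Cbx3 and Cbx5. The members were chosen by symbol and found in the count tables by Entrez gene identifier. All 10 were found among the 27179 genes listed, and all 10 were among the 12303 genes retained for testing. The lines compared were grown from end stage lymphomas of male Eµ-Myc transgenic mice of the C57BL/6 strain, so every line of both groups carried the Myc transgene, which is driven by an immunoglobulin enhancer active in B cells. The 3 wild-type lines had wild-type Smchd1. The 4 Smchd1 null lines came from homozygotes for what the labels call a gene trap in Smchd1, which encodes a noncanonical SMC protein needed for stable gene silencing, whereas the methods of the study name the allele MD1. Ages of the mice were not given. The comparison asks whether loss of Smchd1 was accompanied by a change in the genes of another silencing pathway.

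Methylation of H3K9 marks compacted, silent chromatin. SUV39H1 and SUV39H2 place the trimethyl mark at pericentromeric repeats, EHMT1 (GLP) and EHMT2 (G9a) act as a pair that places the mono- and dimethyl marks in euchromatin, and SETDB1 is brought by TRIM28 to sites bound by KRAB zinc finger proteins, among them endogenous retroviruses. HP1 proteins read the mark through a chromodomain and in turn bind methyltransferases, which lets the mark spread.

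Wild-type replicate 1 was sequenced as single-end reads and was the sole library of batch 1. The other 6 libraries formed batch 2, as paired-end reads. Batch, read layout and the properties of that line therefore cannot be told apart. Total counts ranged from 3626853 in wild-type replicate 1 to 7519549 in Smchd1 null replicate 4, and 3 counts, taken as the lowest level that can be read, came to between 0.399 and 0.827 CPM (the count a gene would have in a library of 1000000 counts). The fit gave each library a weight for its variability, from 0.246 for wild-type replicate 1 and 0.249 for Smchd1 null replicate 4 to 3.78 and 3.06 for wild-type replicates 2 and 3. These last were much more alike than any other pair within a group, with a chi-square per degree of freedom of 3.96 against 18.1 to 64.9. They differed beyond sampling noise, which does not show that they came from separate animals, and the labels do not say. They were kept as separate samples. At a false discovery rate below 0.05, the fit passed 1466 genes with them separate and 1 with their counts summed. Smchd1 itself was at 248, 230.3 and 219 CPM in wild-type replicates 1 to 3 and at 25.9, 22.6, 28.6 and 28.7 CPM in Smchd1 null replicates 1 to 4, so the groups did not overlap and the null mean was 11.4% of the wild-type mean (exact two-sided permutation test, p = 0.02857, the smallest that 35 splits allow). The 8 B cell markers checked summed to between 1285 and 2320 CPM in 6 libraries and to 513 CPM in Smchd1 null replicate 4, with 1 of the 8 at 0 in wild-type replicate 3. By limma voom with sample weights, Cd79a was called higher in null lines (log2 fold change 0.96, FDR 0.0445). Ebf1 was called lower (log2 fold change -0.67, FDR 0.0494). The groups overlapped in both, and the other B cell markers were not called. In sum, 4 T cell markers gave at most 0.399 CPM, 4 myeloid markers 0.296 to 26.8 CPM, 2 erythroid markers at most 2.20 CPM and 3 stromal markers at most 6.34 CPM, the last in wild-type replicate 1. The 12 proliferation genes summed to between 4359 and 5289.7 CPM, and 1 of them was called, against 11.9% of all genes tested. This was Pcna, the sliding clamp of DNA replication, at 208 CPM on average in wild-type and 344 CPM in null lines. Its log2 fold change was 0.56 (FDR 0.0184 by limma voom with sample weights). Pcna was also called by DESeq2 (FDR 0.00358), but not by voom alone (FDR 0.170) or edgeR (FDR 0.201).

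None of the 10 members was called differentially expressed (DE) between Smchd1 null and wild-type lines at a false discovery rate (FDR) below 0.05 in the fit with sample weights (limma voom, Benjamini-Hochberg adjustment over all 12303 genes), against 11.9% of all genes tested. At an unadjusted p below 0.05 the count was 2 of 10, Suv39h1 and Suv39h2, against 31.8% of all genes. None was called by voom alone or by the quasi-likelihood test of edgeR, which each called 0.0975% of all genes, nor by DESeq2, which called 3.12%. None was called without wild-type replicate 1, where 13.6% of genes were. The smallest FDR of any member was 0.0838 in the fit with sample weights and 0.0585 over the 20 alternative fits. The median log2 fold change of the members was 0.09, with 8 positive and 2 negative, beside a median of -0.01 over all genes tested. The groups did not overlap in CPM for 2 of 10 members, Suv39h2 and Cbx3, against 13.2% of all genes. The labels do not say that the lines came from separate animals, so p-values measure the spread between these samples. In RNA from a mass of cells, fewer cells of a type and less RNA per cell cannot be told apart.

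**Figure D1:**
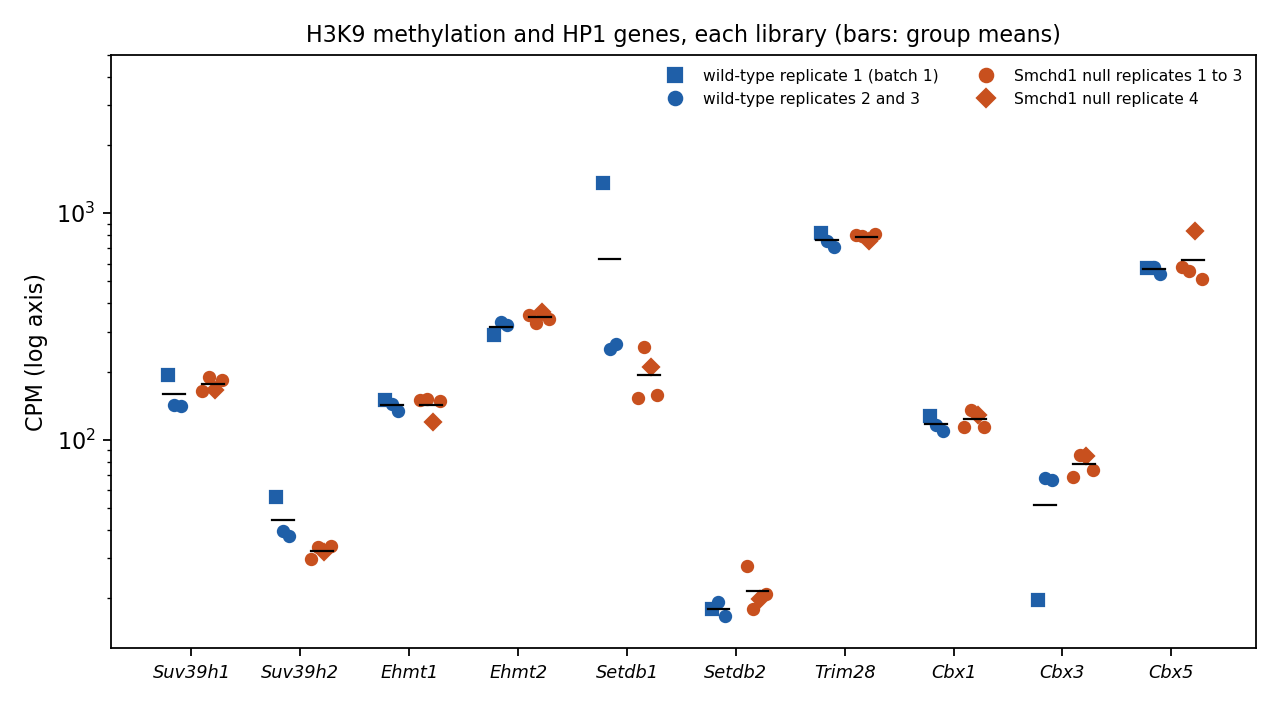
Level of each member in each library, in CPM on a log axis. Points are single libraries, wild-type in blue and Smchd1 null in orange, and bars are group means. Setdb1 in wild-type replicate 1 stands at 1360.1 CPM with the other libraries between 152 and 266, and Cbx3 in the same library stands at 19.6 CPM with the others between 66.7 and 85.7.

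In the fit with sample weights the SUV39H enzymes came closest to a difference, and in opposite directions. By DESeq2 and without wild-type replicate 1, Setdb1 had a smaller FDR than either. With voom alone, edgeR and DESeq2 the FDRs were 0.704, 0.728 and 0.786 for Suv39h1 and 0.432, 0.404 and 0.284 for Suv39h2. Suv39h1, on chromosome X (chrX:8061171-8074760, GRCm38), was at 194, 143 and 141 CPM in wild-type replicates 1 to 3 and at 183, 165, 189 and 166 CPM in Smchd1 null replicates 1 to 4. All 4 null libraries were above wild-type replicates 2 and 3, but wild-type replicate 1 was the highest of the 7, so the groups overlapped. The log2 fold change of Suv39h1 (null minus wild-type) was 0.29 with an SE of 0.10 and a 95% interval from 0.07 to 0.50, at an unadjusted p of 0.0165 and an FDR of 0.0838. Suv39h2 (chr2:3455815-3474986), the paralog, was at 56.0, 39.7 and 37.7 CPM in the wild-type libraries and at 33.9, 29.9, 33.5 and 31.9 CPM in the null libraries. Every null library was below every wild-type library. Its log2 fold change was -0.29 with an SE of 0.11 and a 95% interval from -0.55 to -0.04, at an unadjusted p of 0.0302 and an FDR of 0.117. With wild-type replicate 1 left out, the log2 fold change was 0.30 for Suv39h1 and -0.28 for Suv39h2, at FDRs of 0.0678 and 0.126. Without wild-type replicate 2 these were 0.12 and -0.45 (FDRs 0.970 and 0.881), and without wild-type replicate 3 they were 0.10 and -0.52 (FDRs 0.960 and 0.807).

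The share of Suv39h1 in the summed SUV39H transcripts did not overlap between the groups. Counted per kilobase of gene length, Suv39h1 made up 82.7%, 83.2% and 83.7% of the pair in wild-type replicates 1 to 3 and 88.1%, 88.3%, 88.6% and 87.7% in Smchd1 null replicates 1 to 4. The highest wild-type share lay below the lowest null share, and wild-type replicate 1, which was high for both genes, had a share like that of the other wild-type lines. The means were 83.2% ± 0.53 (SD, n = 3) and 88.2% ± 0.36 (SD, n = 4), a difference of 5.01 percentage points. As a ratio, Suv39h1 stood at 4.95 ± 0.19 times the level of Suv39h2 per kilobase in wild-type lines and at 7.48 ± 0.25 times in null lines. On raw counts the shares were 78.3% and 84.5%. This share was looked at in 4 families with the levels already known, so no p-value is given for it. Both genes overlap others on the opposite strand, Suv39h1 the antisense transcript Gm14820 over 767 exonic bases and Suv39h2 the DNA repair gene Dclre1c over 357. The strand setting of the counting was not stated, so reads there cannot be assigned with certainty. Dclre1c itself was at 36.1, 32.3 and 33.6 CPM in the wild-type libraries and at 31.0, 30.5, 33.5 and 19.9 CPM in the null libraries, so its groups overlapped, and its part in the share of Suv39h1 was not tested.

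**Figure D2:**
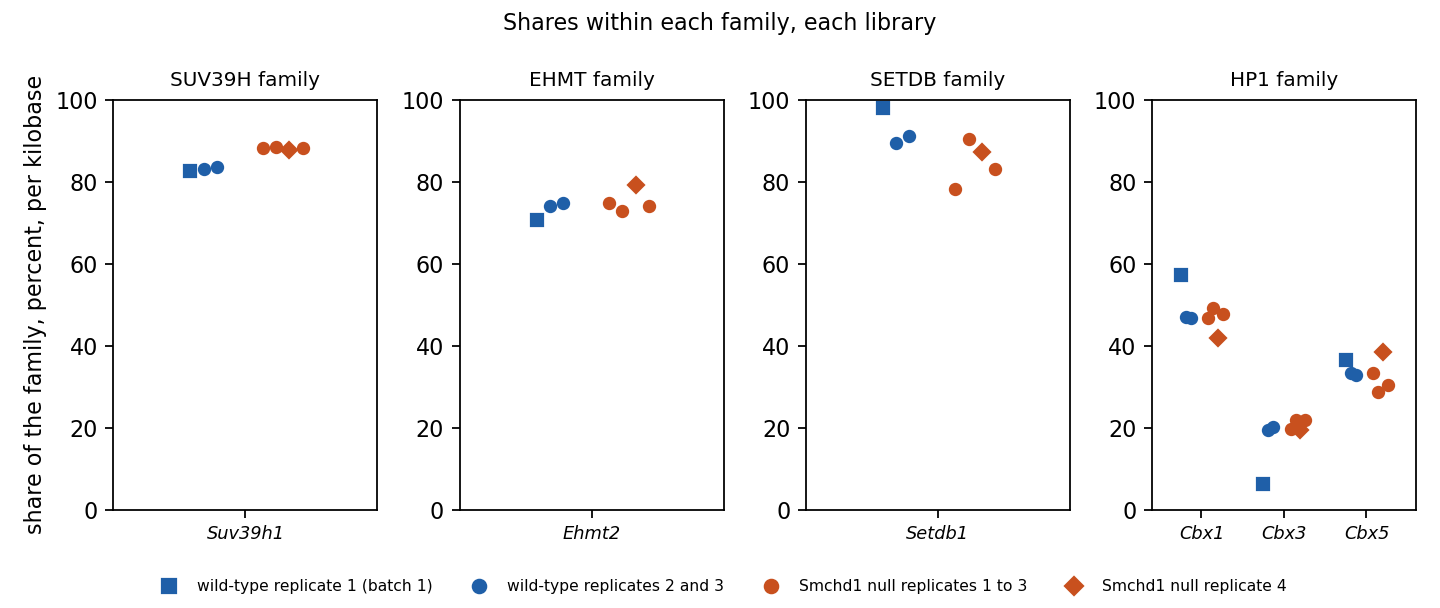
Share of each family taken by the named gene in each library, in percent of the summed counts per kilobase. For pairs the other gene has the remainder. Suv39h1 runs from 82.7% to 83.7% in wild-type lines and from 87.7% to 88.6% in Smchd1 null lines, while the groups overlap in the other 3 families.

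The EHMT enzymes differed little between groups. Ehmt1 (chr2:24790769-24919643) was at 150.3, 144 and 134 CPM in wild-type and at 149, 150.0, 152 and 119.8 CPM in null libraries. Smchd1 null replicate 4 was the lowest of the 7, and the other 3 null libraries had a mean of 150.3 ± 1.29 CPM (SD, n = 3). Its log2 fold change was 0.08 with a 95% interval from -0.13 to 0.28 (FDR 0.601). Ehmt2 (chr17:34898463-34914073) was at 290.1, 331 and 320.2 CPM in wild-type and at 341, 357, 329 and 365 CPM in null libraries. Of the null libraries, 3 were above the wild-type range and Smchd1 null replicate 3 was just below wild-type replicate 2, so the groups overlapped. Its log2 fold change was 0.09 with a 95% interval from -0.09 to 0.27 (FDR 0.465). The SD of log2 CPM of Ehmt2 among null lines was 0.05, lower than in all but 0.821% of genes tested, whose median was 0.31. Per kilobase, Ehmt1 was 26.9% ± 2.2 of the pair in wild-type lines and 24.8% ± 2.7 in null lines, with overlapping groups.

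Setdb1 and its corepressor Trim28 behaved differently from each other across libraries. Trim28 (chr7:13024152-13031032), the scaffold that links KRAB zinc finger proteins to SETDB1, was at 820.3, 755 and 709 CPM in wild-type and at 809, 799, 795 and 755 CPM in null libraries. The 7 values overlapped and the highest was 1.16 times the lowest, the narrowest range of the 10 members. Its log2 fold change was 0.11 with a 95% interval from -0.07 to 0.29 (FDR 0.360). Setdb1 (chr3:95323525-95357202) was at 1360.1, 252 and 266 CPM in wild-type and at 158, 152, 257 and 209 CPM in null libraries, the widest range of the members, with the highest 8.92 times the lowest. Wild-type replicate 1 was 5.25 times the mean of wild-type replicates 2 and 3, and Smchd1 null replicate 3 lay between those, so the groups overlapped. The log2 fold change was -0.63 with an SE of 0.29 and a 95% interval from -1.31 to 0.04 (FDR 0.181). Its size differed between fits, at -1.22 with voom alone (FDR 0.465), -1.66 with DESeq2 (FDR 0.0740) and -0.57 without wild-type replicate 1 (FDR 0.0585). Setdb2 (chr14:59402009-59440880), the less studied relative of Setdb1, was at 17.9, 19.2 and 16.7 CPM in wild-type and at 20.9, 27.6, 17.9 and 19.8 CPM in null libraries. Smchd1 null replicate 2 was the highest and the groups overlapped. Its log2 fold change was 0.32 with a 95% interval from -0.05 to 0.70 (FDR 0.214), and without Smchd1 null replicate 2 it was 0.09.

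**Figure D3:**
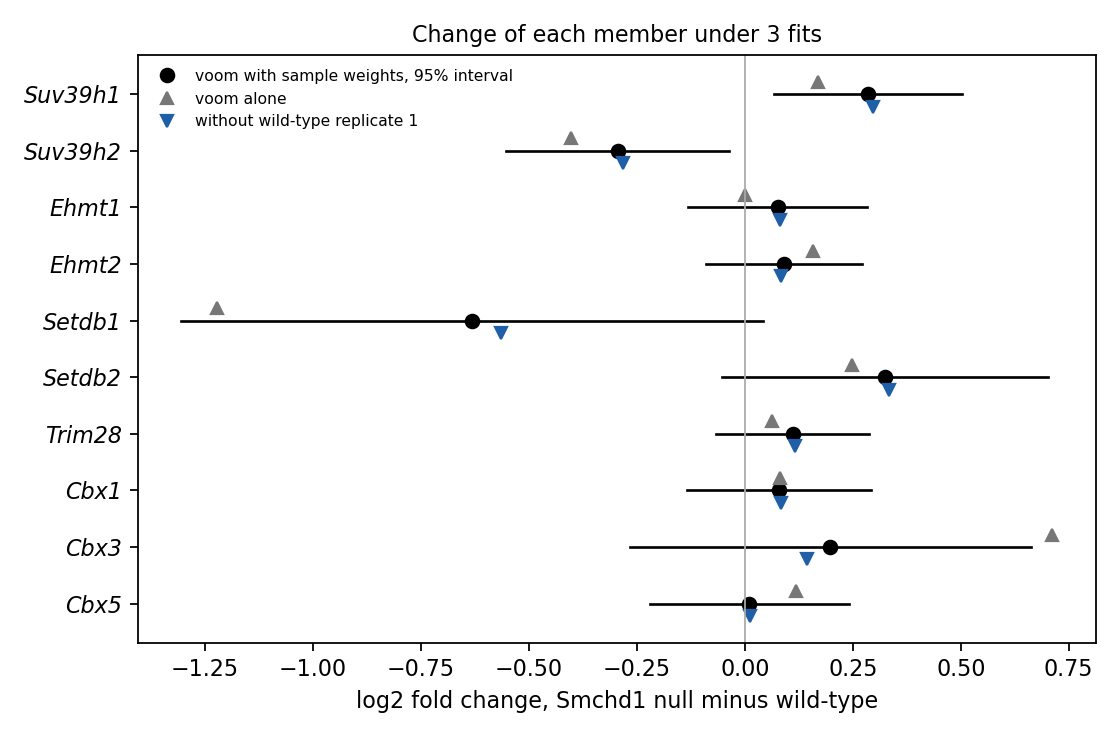
Log2 fold change of each member, Smchd1 null minus wild-type. Black points with lines are the fit with sample weights and its 95% interval, grey triangles voom alone, and blue triangles the fit without wild-type replicate 1. The estimates for Setdb1 (-0.63 and -1.22) and Cbx3 (0.20 and 0.71) move most between the fit with sample weights and voom alone.

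The high Setdb1 level in wild-type replicate 1 was shared by its neighbours on chromosome 3. For each library the deviation of a gene was taken as its log2 CPM minus the median of the other 6 libraries, and for Setdb1 in wild-type replicate 1 this was 2.53. Among retained genes whose lowest coordinate lay up to 0.5 Mb below that of Setdb1, 17 of 21 were more than 1 log2 unit higher in wild-type replicate 1, with a median of 1.97, and from 0 to 0.5 Mb above it 9 of 10 were, with a median of 1.97. From 0.5 to 1 Mb below, 1 of 9 genes passed that level, with a median of 0.13, and from 0.5 to 1 Mb above 8 of 21 did, with a median of 0.81. The whole of chromosome 3 had a median deviation of 0.29 over 556 genes in that library. The raised neighbours, named after their values were seen, do unrelated things. Psmd4, a proteasome subunit, was at 1129 CPM in wild-type replicate 1 and at 140.4 to 235 CPM elsewhere. Arnt, a partner of the dioxin receptor, was at 493 CPM and at 58.1 to 129.7 CPM elsewhere. Mcl1, an antiapoptotic gene of the Bcl2 family, was at 1167 CPM in wild-type replicate 1 and at 240.3 to 666 CPM elsewhere. Cers2, a ceramide synthase whose exons overlap those of Setdb1 by 75 bases on the opposite strand, was at 781 CPM and at 155 to 244 CPM elsewhere.

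**Figure D4:**
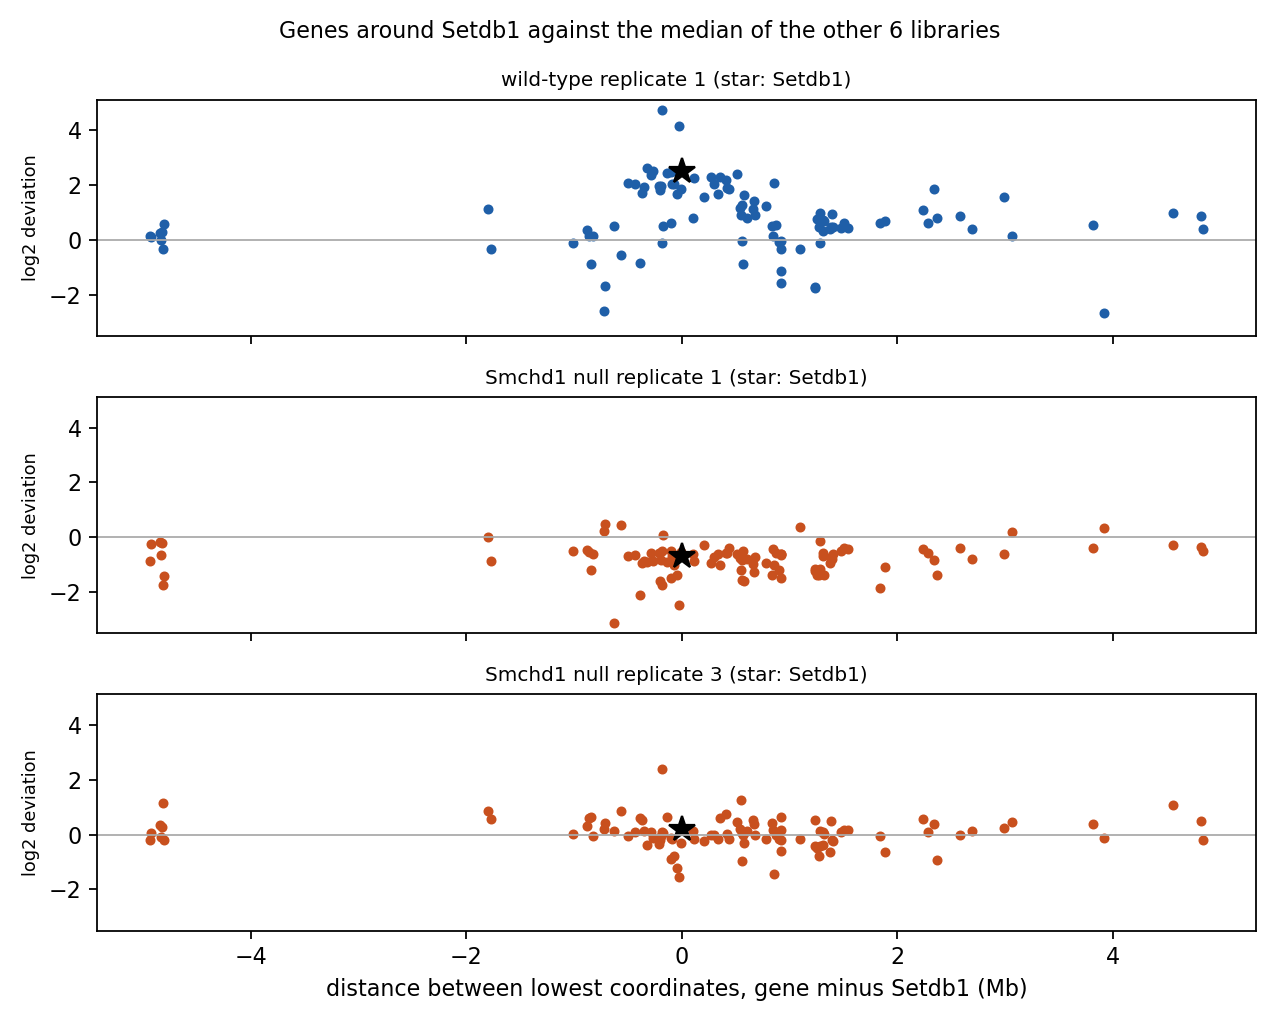
Deviation of each retained gene within 5 Mb of Setdb1 from the median of the other 6 libraries, in log2 CPM, against the distance between lowest coordinates in Mb, for 3 libraries. The star is Setdb1, at 2.53 in wild-type replicate 1, -0.68 in Smchd1 null replicate 1 and 0.19 in Smchd1 null replicate 3. In wild-type replicate 1 most genes within 0.5 Mb lie near 2, and in Smchd1 null replicate 1 most genes across the window lie below 0.

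The low Setdb1 levels of Smchd1 null replicates 1 and 2 went with the level of the whole of chromosome 3. Setdb1 deviated by -0.68 and -0.76 in those lines, the 61 genes within 1 Mb by medians of -0.76 and -0.64, and the chromosome by -0.47 and -0.50. In Smchd1 null replicates 3 and 4 Setdb1 deviated by 0.19 and -0.34, beside chromosome medians of 0.12 and 0.07. With the median deviation of each chromosome subtracted in each library, an adjustment chosen after the data were seen, the log2 fold change of Setdb1 was -0.21 (FDR 0.630). The same adjustment moved Suv39h2 from -0.29 to -0.37, at an FDR of 0.0591, and left 0 of 10 members called.

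Among the HP1 genes, Cbx1 (HP1 beta, chr11:96788680-96808982) was at 128, 116 and 109 CPM in wild-type and at 114, 114, 136 and 129 CPM in null libraries. The groups overlapped throughout, and the log2 fold change was 0.08 with a 95% interval from -0.13 to 0.29 (FDR 0.595). Cbx5 (HP1 alpha, chr15:103191546-103239904) was at 575, 580.3 and 539.5 CPM in wild-type and at 511, 578, 557 and 834 CPM in null libraries. Smchd1 null replicate 4 was above the other 6, which overlapped. The null mean was 620.0 ± 146 CPM (SD, n = 4) with that library and 549 ± 34.4 CPM (SD, n = 3) without it, and the log2 fold change was 0.01 with a 95% interval from -0.22 to 0.24 (FDR 0.954). In Smchd1 null replicate 4 the deviation of Cbx5 was 0.54, that of the 25 genes within 1 Mb had a median of 0.41, and that of 452 genes of chromosome 15 had a median of 0.46. The same library had the low sum of B cell markers given above and 220.4 CPM over 3 endothelial markers, against 47.7 to 96.0 elsewhere, of which Pecam1 alone gave 219 CPM. The other endothelial markers did not follow Pecam1. Kdr was at 0 in every library, and Cdh5 was at 1.33 CPM there and at 1.28 to 3.58 CPM elsewhere. The part of these markers in the level of Cbx5 was not tested.

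**Figure D5:**
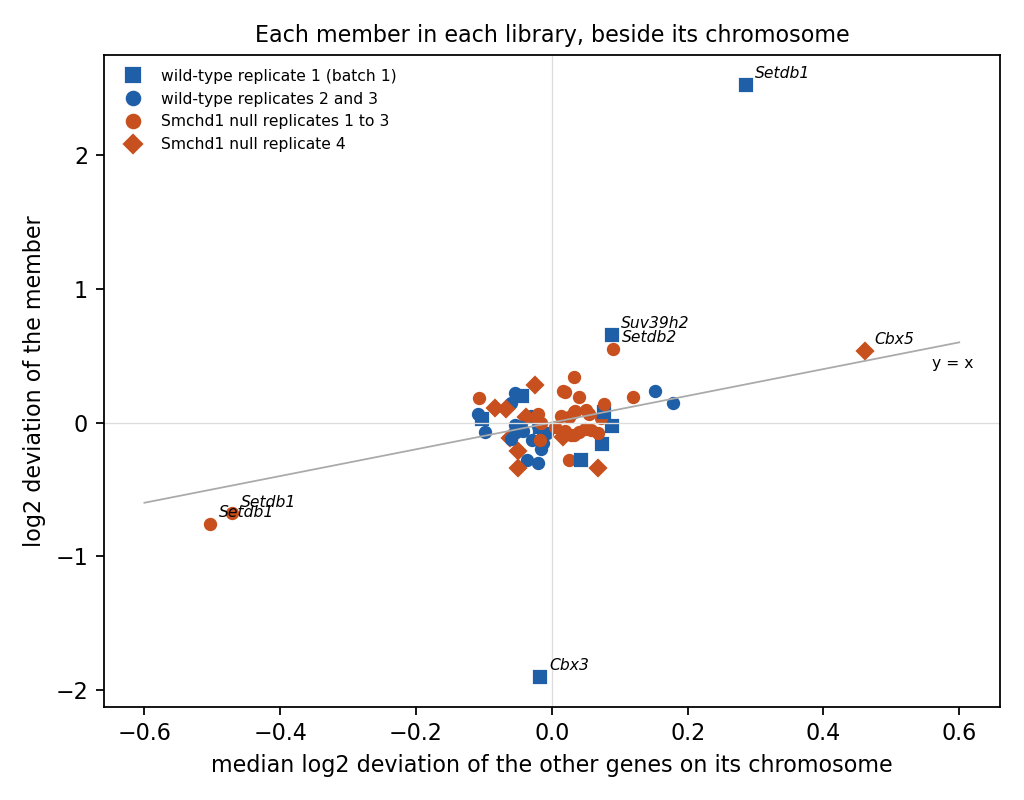
Deviation of each member in each library against the median deviation of the other genes on its chromosome, both in log2 CPM, with the line of equality. Setdb1 in Smchd1 null replicates 1 and 2 and Cbx5 in Smchd1 null replicate 4 lie near the line, whereas Setdb1 (2.53) and Cbx3 (-1.90) in wild-type replicate 1 lie far from it.

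Cbx3 (HP1 gamma, chr6:51470154-51483704), the HP1 protein also found along active genes, was at 19.6, 67.7 and 66.7 CPM in wild-type and at 73.8, 68.6, 85.7 and 85.2 CPM in null libraries. Every null library was above every wild-type library, but by 68.6 against 67.7 CPM at the nearest, and wild-type replicate 1 was at 0.291 times the mean of wild-type replicates 2 and 3. These levels rest on 71, 413 and 455 counts in wild-type and on 498, 427, 555 and 641 counts in null libraries. The log2 fold change was 0.20 with an SE of 0.20 and a 95% interval from -0.27 to 0.66 (FDR 0.541). It was 0.71 with voom alone (FDR 0.558) and 0.14 without wild-type replicate 1 (FDR 0.382). In wild-type replicate 1 Cbx3 deviated by -1.90 and chromosome 6 had a median deviation of -0.02. The 10 retained genes within 1 Mb of Cbx3 had a median of -1.30 there, and 9 of them were also lower. Of the 10, 6 had fewer than 100 counts in every library, with a median of -1.50, and the other 4 had a median of -0.83. In Smchd1 null replicate 2 the 10 neighbours had a median of -0.98, where Cbx3 deviated by -0.07. Among the 9 genes lower in wild-type replicate 1, named after their values were seen, Cycs (cytochrome c) had 29 counts there and 180 to 287 elsewhere. Snx10, a sorting nexin, had 21 counts there and 38 to 131 elsewhere. In the Hoxa cluster 5 genes had 0 counts there and at most 30 elsewhere, and Hoxa9 had 0 counts in every wild-type library. The exception was the gene beside Cbx3, Hnrnpa2b1, an RNA-binding protein, at 3356 CPM in wild-type replicate 1 and at 2025 to 3235 CPM elsewhere. The part of this neighbourhood in the low value of Cbx3 was not tested.

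Among the members, Cbx3 shared the largest part of its sequence with other annotated GENCODE M21 transcripts. Copies outside annotated transcripts were not searched. Of the 453 windows of 100 bases in its coding sequence, 353 (77.9%) occur exactly in an annotated Cbx3 pseudogene, and the pseudogenes Cbx3-ps6 (chr14:73955000-73955551, minus strand) and Cbx3-ps7 (chr1:58646688-58647239, plus strand) differ from the 552 coding bases at 1 and 2 positions. Coding positions 331 to 450 are shown from the GENCODE M21 transcripts of GRCm38, 5′ to 3′, because they hold those differences, which are in capitals.
Cbx3: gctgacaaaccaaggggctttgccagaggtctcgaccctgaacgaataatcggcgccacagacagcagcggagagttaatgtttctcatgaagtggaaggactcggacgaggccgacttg
Cbx3-ps6: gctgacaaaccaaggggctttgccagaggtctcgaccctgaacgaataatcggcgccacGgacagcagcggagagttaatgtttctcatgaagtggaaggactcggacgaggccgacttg
Cbx3-ps7: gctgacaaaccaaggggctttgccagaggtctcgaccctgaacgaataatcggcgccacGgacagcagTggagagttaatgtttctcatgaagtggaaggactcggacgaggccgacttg
Over the whole Cbx3 transcript 23.9% of such windows are shared with another gene. The other members share 17.5% (Suv39h1, with its antisense transcript), 4.52% (Setdb1) and 1.96% (Suv39h2), and the remaining 6 share none. How reads matching several places were counted was not stated, so the level of Cbx3 is uncertain in every library. Of 6 Cbx3 pseudogenes with an Entrez identifier in RefSeq, 1 was matched to a row of the counts, Cbx3-ps5, whose bases are 94.4% identical to the coding sequence. It shares 14 of the 453 coding windows (3.09%), against 353 for Cbx3-ps6 and 344 for Cbx3-ps7, neither of which had a row of counts. Cbx3-ps5 had 78, 14 and 25 counts in wild-type replicates 1 to 3 and 9, 16, 25 and 27 in the null libraries. Its count was highest in the library where Cbx3 was lowest, and its part in the level of Cbx3 was not tested. Among 59 retained genes with 3 or more annotated pseudogenes the median deviation in wild-type replicate 1 was -0.14, and 1 of them was lower there than Cbx3. Of the 59, 33 were negative in that library. In Smchd1 null replicate 4, which was paired-end, their median was -0.22 and 45 were negative. Their medians in the remaining libraries ran from -0.06 to 0.13. Batch, read layout and line cannot be told apart for the level of Cbx3 in wild-type replicate 1.

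Within the HP1 family, shares per kilobase overlapped between the groups. Cbx1 took 50.4% ± 5.9 in wild-type and 46.5% ± 3.2 in null lines, Cbx5 34.3% ± 2.0 and 32.7% ± 4.3, and Cbx3 15.3% ± 7.9 and 20.8% ± 1.3 (SD, n = 3 and 4). The wild-type mean for Cbx3 combined 6.20% in wild-type replicate 1 with 19.5% and 20.3% in the other lines. Summed over the 3 genes, HP1 transcripts came to between 175 and 193 RPKM (CPM per kilobase of gene length) in wild-type and between 187 and 241.5 RPKM in null lines, with overlapping groups.

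Ranked by level per kilobase in the null lines, Trim28 was highest at 243 ± 7.3 RPKM (SD, n = 4), at the 97.6th percentile of all genes tested by mean level. Cbx1 (96.9), Ehmt2 (85.7), Cbx5 (69.0) and Suv39h1 (56.4) followed, and the lines of each overlapped with those of the next. Cbx3 (43.4) and Setdb1 (41.6) overlapped with each other but not with Suv39h1 above or Ehmt1 (28.3) below, except that the highest Setdb1 value, 55.1 RPKM, fell within the range of Suv39h1. Suv39h2 (7.54) and Setdb2 (7.11) overlapped and were the lowest. In wild-type lines the order was the same but for Setdb1, whose mean of 134 RPKM combined 292 RPKM in wild-type replicate 1 with 54.1 and 57.1 RPKM in the others. Cbx3 (28.5) and Ehmt1 (28.3) overlapped there. Cbx1, Ehmt2 and Cbx5 did not overlap there, nor did the lowest-ranked pair, with Suv39h2 at 8.80 to 13.1 RPKM and Setdb2 at 5.51 to 6.33 RPKM. Setdb1 and Cbx3 were also the most variable members among wild-type lines, with an SD of log2 CPM of 1.35 and 1.05 against a median of 0.31 over all genes, with wild-type replicate 1 far from the other lines in each.

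Around the members, 39 further genes of the pathway were examined as a list of cofactors, demethylases and partners, of which 38 passed the filter. Of these, 6 were called DE and all 6 were lower in Smchd1 null lines, against 6.85% of all genes called lower, and none was called higher. The H3K9 demethylases gave 2 of 10 (Kdm3a and Kdm4b), HP1 partners and heterochromatin proteins 2 of 13 (Pogz and Incenp), the relatives of Trim28 1 of 2 (Trim33), and the H4K20 methyltransferases recruited by HP1 1 of 2 (Kmt5b). None of 2 Setdb1 cofactors, 4 HUSH complex genes with Morc2a, 4 partners of Ehmt1 and Ehmt2, and 1 other methyltransferase was called.

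Kdm4b, which removes H3K9 and H3K36 trimethylation, was at 41.9, 72.7 and 72.7 CPM in wild-type and at 48.1, 37.9, 36.9 and 36.3 CPM in null libraries, a log2 fold change of -0.83 (FDR 0.0148). Kdm3a, a demethylase of the mono- and dimethyl marks, was at 92.4, 199 and 183 CPM and at 134, 117, 117 and 85.8 CPM, a log2 fold change of -0.65 (FDR 0.0383). Kmt5b, which adds methyl groups to H4K20 behind HP1, was at 54.6, 102 and 100.4 CPM and at 55.4, 54.3, 54.5 and 41.9 CPM, a log2 fold change of -0.89 (FDR 0.0122). In these 3 genes wild-type replicate 1 fell within the null range and wild-type replicates 2 and 3 stood above it. Trim33, a ubiquitin ligase of the Trim28 family, was at 192, 179 and 169.7 CPM in wild-type and at 101, 86.7, 128 and 121 CPM in null libraries, a log2 fold change of -0.80 (FDR 0.0124). Incenp, the scaffold of the chromosomal passenger complex, was at 347, 445 and 483 CPM and at 309, 314, 338 and 267 CPM, a log2 fold change of -0.54 (FDR 0.0188). Pogz, a zinc finger partner of HP1 alpha, was at 514, 177 and 159 CPM and at 85.2, 89.9, 124 and 111 CPM, a log2 fold change of -0.86 (FDR 0.0368). In Trim33, Incenp and Pogz the groups did not overlap, although Pogz lies 0.501 Mb from Setdb1 and shared its high level in wild-type replicate 1.

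Of the 6 called genes, 4 were on chromosomes 3 and 19, where the share of genes called was above the 11.9% over all genes. Incenp and Kmt5b are on chromosome 19, where 38.6% of 433 genes tested were called and the median log2 fold change was -0.56. Trim33 and Pogz are on chromosome 3, with 18.7% of 557 genes called and a median of -0.44. Kdm3a is on chromosome 6 and Kdm4b on chromosome 17, with 10.3% and 10.4% of genes called and medians of 0.04 and 0.03. With chromosome medians subtracted, 3 of the 38 genes were called, against 8.49% of all genes tested. These were Trim33 at a log2 fold change of -0.37 (FDR 0.0377), Kdm4b at -0.86 (FDR 0.0202) and Kdm3a at -0.72 (FDR 0.0396). The other values were -0.43 for Pogz (FDR 0.151), -0.33 for Kmt5b (FDR 0.0910) and 0.01 for Incenp (FDR 0.931). None of the 38 was called by voom alone or by edgeR, 2 were by DESeq2, and none was when wild-type replicate 2, wild-type replicate 3 or Smchd1 null replicate 2 was left out.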

How the data were processed

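TruSeq libraries were prepared from total RNA of the 7 lines for Illumina sequencing. The authors aligned the reads to mm10 with Subread and summarised them per gene with featureCounts, and the deposited values are raw counts per Entrez gene with a gene length, 1 table per library and neither normalised nor pooled. Base calling with CASAVA (version 1.8.2) is named in the submitters' processing notes. The treatment of multi-mapping reads and the strand setting are not given in the sources used here.

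Symbols and coordinates came from RefSeq GRCm38.p6, the same build, which matched 25275 of 27179 genes holding 98.2% of counts. Pseudogenes, exon overlaps and windows of 100 bases came from GENCODE M21. Analysis used R (version 4.3.3). Genes had to reach 0.5 CPM in no fewer than 3 samples, and TMM factors were computed with edgeR (version 4.0.16). Smchd1 null was compared with wild-type by voomWithQualityWeights, lmFit and eBayes of limma (version 3.58.1), with no covariate and Benjamini-Hochberg adjustment over all 12303 genes, as in the methods of the study. Deviations used log2 CPM with a prior count of 2. Alternatives were other weightings, edgeR, DESeq2 (version 1.42.0), normalisation, filters, leaving out each replicate, the replicate number as a block, and wild-type replicates 2 and 3 summed. The floor of 3 counts covers counting error only. The fit was run on simulated counts with the same dispersion for every gene and library, without noisy libraries or batches. That run does not show how the fit behaves with libraries of unequal weight.

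The members, lists and tests were chosen with earlier results of these data known. The genes named are all members, Smchd1, each further pathway gene called DE, and, chosen after their values were seen, neighbours of Setdb1 and Cbx3, genes overlapping a member, and single markers.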

Additional observations from a re-analysis of the deposited data

Results flagged for a closer look

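In 17 screens of the levels of named genes among the 4 Smchd1 null lines, 3 held a library far from the others by Dixon's test, where chance gives about 0.85. Ehmt1 was at 119.8 CPM in Smchd1 null replicate 4, with the next library at 149 CPM. Kmt5b was at 41.9 CPM in the same line, with the next at 54.3 CPM. Kdm4b was at 48.1 CPM in Smchd1 null replicate 1, with the next at 37.9 CPM. Wild-type lines, at 3 samples, were not screened.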

How the results depend on the processing

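The number of members called DE was 0 in all 20 alternative fits, and Smchd1 fell and was called in each of them. The log2 fold changes of 9 members kept their sign throughout, with that of Setdb1 between -1.74 (without wild-type replicate 2) and -0.21, and that of Cbx3 between 0.14 and 0.95 (without wild-type replicate 2). Cbx5, at 0.01, turned to -0.0336 with sample removal, -0.0149 with at least 10 counts in every sample, -0.0122 with the replicate block and -0.0837 with chromosome medians subtracted, and ranged from -0.0284 to 0.0671 when single libraries were left out. Incenp turned from -0.54 to 0.0124 with chromosome medians subtracted. The number of further pathway genes called, 6 in the fit with sample weights, was 0 with voom alone, 0 with edgeR, 2 with DESeq2, 0 with the replicate block, 0 with wild-type replicates 2 and 3 summed and 3 with chromosome medians subtracted. In batch 2 alone it was 0 with voom alone and 0 with edgeR, and it ranged from 0 (without wild-type replicate 2, wild-type replicate 3 or Smchd1 null replicate 2) to 7 (without wild-type replicate 1 or Smchd1 null replicate 3). Over all genes 1466 were called, against 12 with voom alone, 12 with edgeR, 384 with DESeq2, 493 with block weights, 507 with sample removal, 222 with the replicate block, 517 and 332 without Smchd1 null replicates 1 and 2, 29 (voom alone) and 44 (edgeR) in batch 2 alone, and 1 without wild-type replicate 2, without wild-type replicate 3, or with these summed. With chromosome medians subtracted 1045 were called. The cause of these differences was not tested. Deviations of same-numbered lines correlated at -0.154, 0.224 and -0.206 for replicates 1 to 3. The best-matching null line bore the same number for replicate 2 only. These values gave no clear pairing by replicate number and cannot exclude one. The chromosome adjustment and the other fits of batch 2 alone were chosen after the data were seen. With 3 and 4 lines per group, the 95% interval of Setdb1 spans more than 1 log2 unit, and levels under 3 counts cannot be read.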
